A study of Mus musculus with 12 samples.

Results

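In 2 of the 5 OGD-R libraries of primary brain endothelial cells (BECs), almost no reads fell on ribosomal RNA. These were Cort-/- OGD-R replicate 3 and Cort+/+ OGD-R replicate 1, called rRNA-poor below. The rRNA-rich libraries were Cort-/- OGD-R replicate 1 and Cort+/+ OGD-R replicates 2 and 3. The libraries were chosen by their level of Rn18s-rs5, the 18S ribosomal RNA repeat entry, so that differences between the 2 sets of libraries describe them and were not tested. Of 12 samples listed, 10 had a column in the tables, 5 OGD-R and 5 NX/NG, and the NX/NG libraries serve here as a second reference.

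BECs were cultured from the brains of mice (strain C57BL/6 in the labels, a C57BL/6J background in the study's methods) with (Cort+/+, labelled WT) or without (Cort-/-, labelled KO) the neuropeptide cortistatin. OGD-R cells spent 4 h at 1% O2 without glucose, followed by 20 h of reoxygenation, and NX/NG cells (labelled NM) were kept for 24 h at 21% O2. Each replicate was a pool of 3 mice per the study's methods, and the labels also name a stroke model (MCAO) as the disease state of all samples, NX/NG included. Both genotypes have 1 rRNA-poor library, so genotype and rRNA content are crossed, and the labels give no preparation date or batch. Cort itself had 0 reads in both Cort-/- OGD-R libraries, and 0, 0 and 1 reads in Cort+/+ OGD-R replicates 1, 2 and 3, and it had 0 and 0 reads in the Cort-/- and 2, 1 and 1 reads in the Cort+/+ NX/NG libraries. With so few reads Cort is no check of the genotype labels under OGD-R.

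The labels and the study's methods each name a stranded mRNA kit, though not the same one, and such kits keep RNA that carries a poly(A) tail. Most messenger RNAs and many long non-coding RNAs carry a long tail. Ribosomal RNA is made by RNA polymerase I, and 5S rRNA, 7SK, the Y RNAs, the vault RNAs and the RNA subunits of RNase P and RNase MRP by RNA polymerase III, without such a tail. Spliceosomal U1, U2 and U4 RNAs are made by RNA polymerase II and are processed at the 3′ end without polyadenylation. Small nucleolar RNAs (snoRNAs) are mostly cut from introns, replication-dependent histone mRNAs end in a stem-loop, and mitochondrial rRNAs, tRNAs and mRNAs are released from long polycistronic transcripts and carry short tails or none.

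The RNAs with large differences between the 2 sets of libraries are shown by their ends. The U1 entry Gm22513 (GRCm38 chr12:54696782-54696945, + strand) opens with the 11 bases, in capitals, that pair with 5′ splice sites. The Y RNA entries Rny1 (chr6:47788069-47788180, - strand) and Rny3 (chr6:47781624-47781725, + strand) close with a run of T, in capitals, at which RNA polymerase III stops. The first 24 bases of Gm22513, Gm25939 (a U2 entry, chr1:72255008-72255198, + strand), Gm24265 (a U4 entry, chr5:115489459-115489599, + strand), Rmrp (chr4:43492783-43493063, - strand) and Rpph1 (chr14:50807449-50807767, - strand), and the last 24 bases of Rny1 and Rny3, are given as DNA letters from the GENCODE vM21 transcripts. None of these 7 transcripts holds a poly(A) signal (AATAAA or ATTAAA) in its last 50 bases.
Gm22513, 5′ end: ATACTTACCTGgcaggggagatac
Gm25939, 5′ end: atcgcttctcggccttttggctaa
Gm24265, 5′ end: agctttgcgcagtggcagtatcgt
Rmrp, 5′ end: aggcagctcgctctgaaggcctgt
Rpph1, 5′ end: ggcggaggaagctcatcagcgggg
Rny1, 3′ end: actactgcacttgactagtcTTTT
Rny3, 3′ end: actgcttcacttgaccagccTTTT

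Each OGD-R library held between 12386100 and 12390428 reads on genes. Ribosomal RNA entries took 0.0957% of them in Cort-/- replicate 3 (95% Wilson interval 0.0940 to 0.0975%) and 0.0781% in Cort+/+ replicate 1 (0.0765 to 0.0797%). In the rRNA-rich libraries they took 9.67% (Cort-/- replicate 1), 15.9% (Cort+/+ replicate 2) and 9.47% (Cort+/+ replicate 3), and in the NX/NG libraries between 7.65 and 15.4%. Intervals cover counting error only. By reads, Rn18s-rs5 had 11786 and 9602 in the rRNA-poor libraries against 1195545, 1961860 and 1171312 in the rRNA-rich ones, with no OGD-R library between 11786 and 1171312. The OGD-R values of the other transcript classes are plotted beside those of NX/NG in the plot of shares by class.

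**Figure D1:**
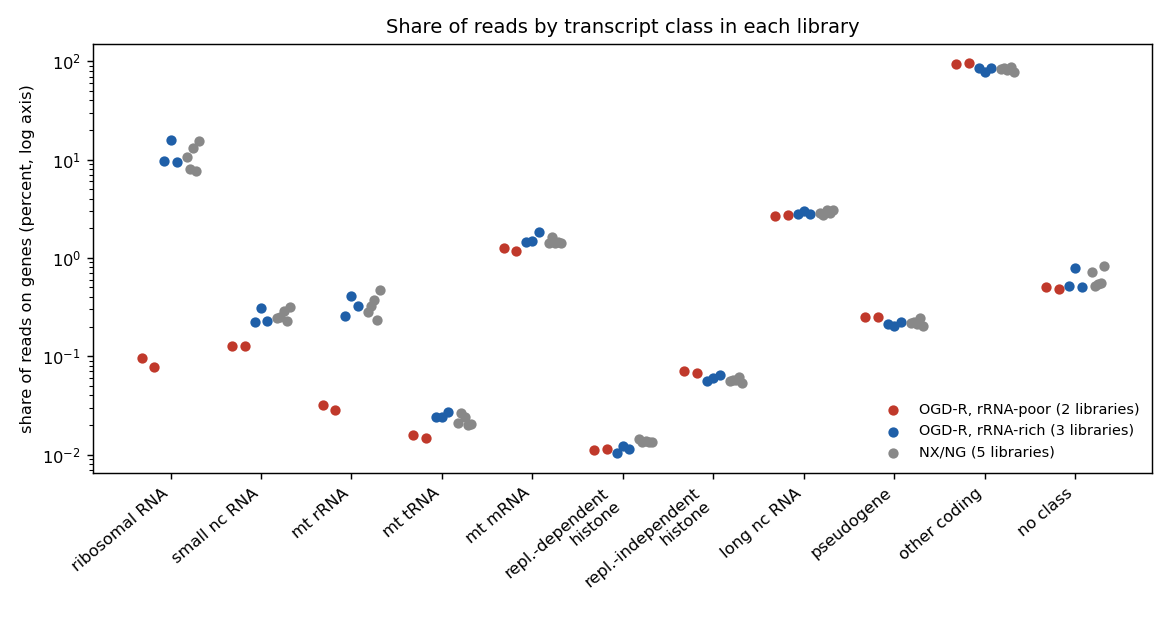
Share of the reads on genes taken by each transcript class (percent, log axis) in every library, with rRNA-poor OGD-R libraries in red, rRNA-rich OGD-R libraries in blue and NX/NG libraries in grey. Ribosomal RNA takes under 0.1% of the reads in the 2 red libraries and 7.65% or more in the other 8, and mitochondrial rRNA and small non-coding RNA are also lowest in the red libraries.

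Endothelial markers were present in both sets. All 12 passed 10 reads on average, 1 lay below and 1 above in the rRNA-poor libraries (15.1% and 14.9% over all genes tested), and the summed level of the list was 1196 and 1111 RPKM (reads scaled to gene length and library size) in the rRNA-poor and 1169 to 1548 RPKM in the rRNA-rich libraries. The pericyte and smooth muscle list summed to 1500 and 1714 RPKM against 1010 to 1565, and the fibroblast and leptomeningeal list to 252 and 342 against 200 to 312. The astrocyte list lay between 1.86 and 4.17 RPKM in every library, and the neuronal, oligodendrocyte, and microglia and macrophage lists at or under 2.09 RPKM. The epithelial and choroid plexus list was at 9.49 and 8.62 RPKM against 37.2 in Cort-/- replicate 1, 4.27 in Cort+/+ replicate 2 and 1.64 in Cort+/+ replicate 3. The erythroid list was at or under 0.191 RPKM. Their part in the differences that follow was not tested. In bulk RNA, fewer cells of a type and less RNA per cell cannot be told apart.

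For each of the 15357 genes with a mean of at least 10 reads per OGD-R library, the difference was taken as the mean log2(RPKM + 0.1) of the rRNA-poor minus that of the rRNA-rich libraries. Over all these genes the median difference was 0.01. Judged on RPKM, and with Rn18s-rs5 itself counted, both rRNA-poor libraries lay below all rRNA-rich libraries in 2326 genes (15.1%) and above all of them in 2288 (14.9%). With a difference of at least 1 on the log2 scale besides, 137 genes (0.892%) lay below and 25 (0.163%) above, and, since this contrast chose the libraries, these shares are given as background only. Of those 137, small non-coding RNA held 41, mitochondrial tRNA 9, replication-dependent histones 3, long non-coding RNA 21 and other coding genes 44, while 13 belonged to entries without a class.

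**Figure D2:**
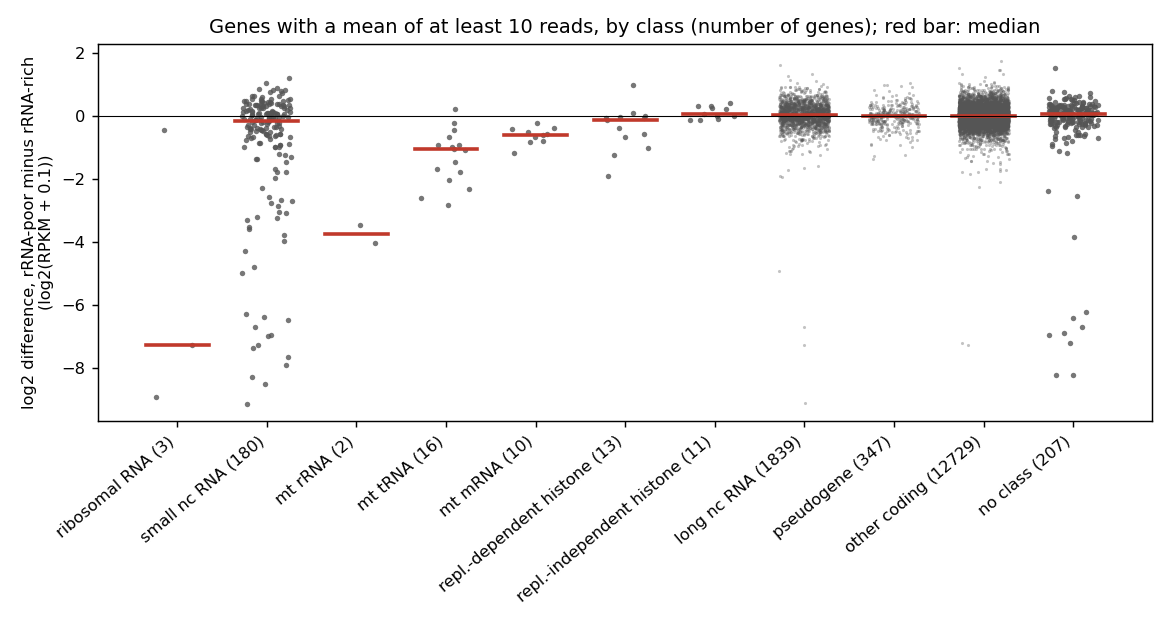
Difference between the rRNA-poor and rRNA-rich libraries (log2(RPKM + 0.1)) for each gene with a mean of at least 10 reads, by class, with the number of genes in parentheses and the class median as a red bar. The medians of mitochondrial rRNA (-3.75) and mitochondrial tRNA (-1.06) lie below 0, small non-coding RNA has a long tail of genes below -2, and coding genes centre on 0.01.

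Ribosomal RNA had 19 entries, of which 3 passed the filter on low counts. 5_8S_rRNA had 11 and 2 reads in the rRNA-poor and 1686, 3079 and 1971 in the rRNA-rich libraries, a level 408 times higher in the latter (exact 95% counting interval 238 to 766). Rn18s-rs5 was 159 times higher (157 to 161). 5S_rRNA, transcribed from its own genes by RNA polymerase III, had 55 and 59 reads against 81, 73 and 80, and was 1.61 times higher (1.29 to 2.04). The 5S entry sums many copies over 29678 bases, and the other entries without 10 reads on average included n-R5s194, with 0 reads in both rRNA-poor libraries and 7, 16 and 3 in the others.

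Several genes outside the rRNA class went with Rn18s-rs5 nearly in proportion. Lars2, the mitochondrial leucyl-tRNA synthetase (chr9:123366927-123462666), had 1210 and 1178 reads in the rRNA-poor and 136873, 224682 and 129994 in the rRNA-rich libraries. Per 1000 reads of Rn18s-rs5, Lars2 had between 103 and 123 reads in the 5 OGD-R libraries and between 79.3 and 108 in the 5 NX/NG libraries. Mir6236 (chr9:110281287-110281409) had 7.45 to 10.8 and 6.10 to 9.72 per 1000, and Gm15564, an antisense long non-coding RNA entry (chr16:35966752-35983230), 3.22 to 6.46 and 3.75 to 5.06. AY036118 (chr17:39847113-39848035) shares 923 bases, on the opposite strand, with Gm42418 (chr17:39846958-39848788), lies within the RefSeq interval of Rn18s-rs5 (chr17:39846354-39848202), and had 977 and 703 reads against 59921, 107206 and 59923. Reads of overlapping entries cannot be told apart in the table, and the table does not say where in Lars2 its reads lie.

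Small non-coding RNA followed ribosomal RNA in part. Of 1271 entries 180 passed the filter, 64 of them below in the rRNA-poor libraries and 27 above (15.1% and 14.9% over all genes). The median was -0.16, and 0.056 among entries with a mean of at least 100 reads. The kinds of RNA differed. Entries with few reads in the rRNA-poor libraries passed the filter through their rRNA-rich reads, so the counts and medians that follow are in part set by the selection. The 10 spliceosomal snRNA entries had a median of -6.72 with 7 below and 0 above, the 67 snoRNA entries a median of -0.65 with 36 below and 6 above, and the 97 miRNA precursor entries a median of 0.12 with 15 below and 21 above. Over all listed entries of a kind, summed reads relative to library size were 7.23 times higher in the rRNA-rich libraries for snRNAs, 1.91 times for snoRNAs, 2.11 times for miRNA precursors and 12.3 times for 7SK, the RNA that holds P-TEFb inactive. For the 4 other small RNAs, Rny1, Rny3, Vaultrc5 and Rpph1, that passed, with the entries of their kind that did not, the ratio was 67.4. Among the miRNA precursors Mir6236 had the most reads, 127 and 89 against 10069, 16924 and 8731, and without it, an alternative chosen after seeing the data, the ratio of the miRNA precursors was 1.07. Mir5121 differed by 0.08.

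The U1 entry Gm22513 had 2 and 1 reads in the rRNA-poor libraries and 602, 1114 and 733 in the rRNA-rich ones, with a ratio of 642 (exact 95% counting interval 220 to 3117). Relative to the reads outside Rn18s-rs5, its NX/NG level was 73.9 to 200 RPM (reads scaled to library size), overlapping the rRNA-rich range of 53.8 to 107 RPM. The U4 entries Gm24265 (1 and 1 reads against 180, 371 and 216) and Gm24407 (1 and 0 against 106, 237 and 130) and the U2 entry Gm25939 (3 and 0 against 96, 208 and 110) were low in the same libraries. In none of these 4 snRNA entries did the sets overlap. All 4 passed the filter through their rRNA-rich reads and were named for their low values, so this is fixed by the selection and is no result.

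The RNAs of 2 processing enzymes went the same way. Rmrp, the RNA of RNase MRP, which cuts the rRNA precursor, had 5 and 0 reads against 523, 1091 and 548, with a ratio of 340 (146 to 1049). Rpph1, the RNA of RNase P, which trims the 5′ end of tRNA precursors, had 7 and 4 reads against 859, 1487 and 747, with a ratio of 221 (124 to 444). Neither overlapped between the sets. Of the polymerase III RNAs, Rny1 had 1 and 0 reads against 28, 86 and 68, and Rny3 0 and 0 against 26, 45 and 42, so that Rny3 was at least 29.6-fold lower, taking 3 reads over the group as the floor. Vaultrc5 had 0 and 5 reads against 63, 112 and 52. 7SK was less depleted, with 129 and 155 reads against 1079, 1965 and 1410. Of the 15 RNAs listed as lacking a tail or made by polymerase I or III, 10 were in the table, 6 passed the filter (Rn18s-rs5, Rmrp, Rpph1, Rny1, Rny3 and Vaultrc5), and these 6 lay below. Rn18s-rs5 chose the libraries and the others passed through their reads in the rRNA-rich libraries, so this count is fixed by the selection and is no result.

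**Figure D3:**
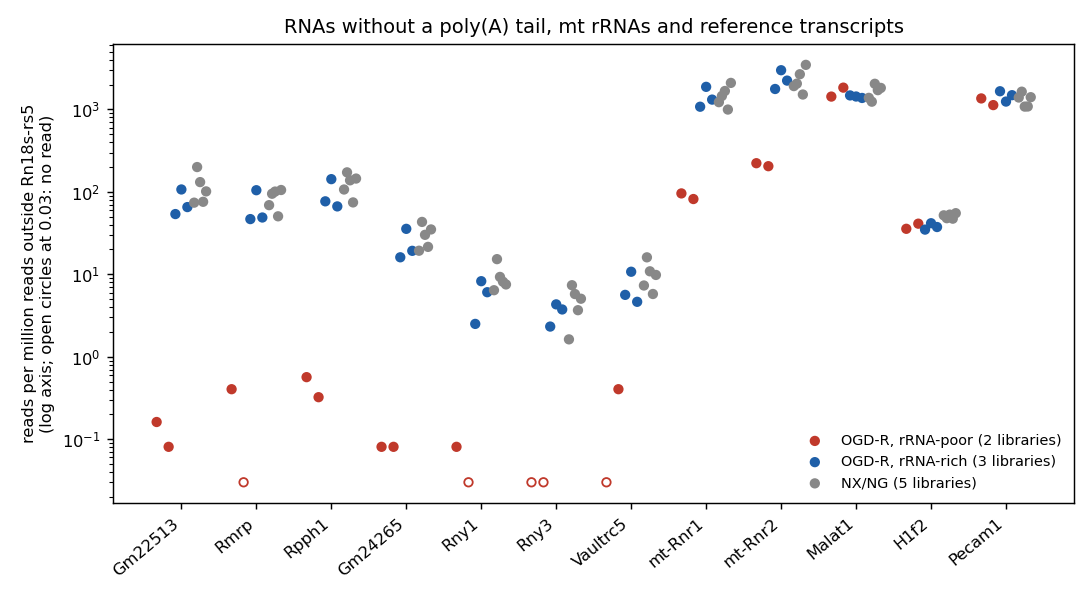
RPM outside Rn18s-rs5 (reads scaled to the library's other reads, log axis; open circles mark libraries without a read) for RNAs that lack a poly(A) tail, both mitochondrial rRNAs and, on the right, a nuclear long non-coding RNA (Malat1), a histone (H1f2) and an endothelial marker (Pecam1). The red rRNA-poor libraries are separated from the blue rRNA-rich and grey NX/NG libraries for every RNA up to mt-Rnr2, and lie among or close to them for Malat1, H1f2 and Pecam1.

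The snoRNAs showed graded values. Snord3a, the U3 snoRNA, which is transcribed from its own promoter and guides the first cuts of the rRNA precursor, had 1 and 1 reads in the rRNA-poor and 94, 162 and 99 in the rRNA-rich libraries, a log2 difference of -6.72. Snord17 had 4 and 5 against 46, 86 and 43, and Snora73a 13 and 14 against 82, 140 and 81 (log2 difference -3.07). Snord22 differed by -2.29 and Snora81 by -1.78. At the other end SNORD14 had 19 and 17 reads against 7, 8 and 5, a log2 difference of 1.20. The snoRNA host genes are Gas5 and the Snhg genes, long non-coding RNAs that carry snoRNAs in their introns. Of 15 that passed, 4 lay below and 0 above (15.1% and 14.9% over all genes), with a median of -0.10. The host at the low end, Snhg3, had 115 and 101 reads against 170, 267 and 206, and shares 159 exon bases with Snora73a.

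**Figure D4:**
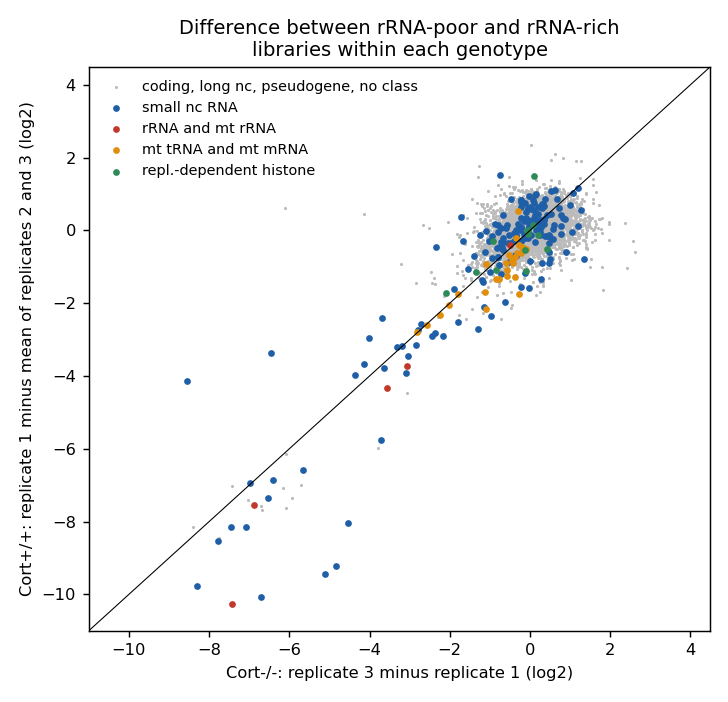
Difference between the rRNA-poor and rRNA-rich libraries within Cort-/- (x axis, replicate 3 minus replicate 1) and within Cort+/+ (y axis, replicate 1 minus the mean of replicates 2 and 3), both on the log2(RPKM + 0.1) scale, for each gene with a mean of at least 10 reads; the line marks equality. Ribosomal and small RNAs extend to below -6 in both genotypes, while most coding genes lie within 2 of 0.

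The contrast can be read within each genotype, since Cort-/- replicate 3 against replicate 1 shares no library with Cort+/+ replicate 1 against replicates 2 and 3. Across the 180 small non-coding RNAs the 2 differences had a Pearson correlation of 0.90, across 1839 long non-coding RNAs 0.52 and across 12729 other coding genes 0.39. Spearman's rho was 0.68, 0.26 and 0.32, so that by rank long non-coding RNAs lay below coding genes. Genes are not independent replicates, and in each contrast the genes share their libraries. The 2 differences had the same sign in 130 of the 180 small RNAs (72.2%) and in 60.1% of the coding genes. Both contrasts follow the choice of libraries by Rn18s-rs5, and some small RNAs passed the filter through rRNA-rich reads alone. The correlations and shared signs are thus in part set by the selection and are a description. Where both rRNA-poor libraries were near 0, as for Gm22513, the size of a difference rests on the pseudocount.

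Mitochondrial transcripts were lower in the rRNA-poor libraries according to their type. The 12S rRNA mt-Rnr1 had 1185 and 1013 reads against 12069, 19573 and 14753, with a ratio of 16.6 (15.9 to 17.35), and the 16S rRNA mt-Rnr2 had 2756 and 2535 against 19795, 31143 and 25075, with a ratio of 11.3. Of 16 tRNAs that passed, 14 lay below and 0 above (15.1% and 14.9% over all genes), with a median of -1.06. mt-Tn (tRNA for asparagine) had 45 and 52 reads against 271, 254 and 363, mt-Tc (cysteine) 43 and 51 against 218, 211 and 315, and mt-Ta (alanine) 45 and 48 against 183, 159 and 257. mt-Ti, for isoleucine, differed by -2.04. Of the tRNAs with the most reads, mt-Te (glutamate) differed by -0.91 and mt-Tp (proline) by -0.66. In contrast mt-Tl1 (leucine) had 688 and 647 reads against 753, 679 and 573, and its sets overlapped.

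The mitochondrial mRNAs differed less. Of 10 that passed, 8 lay below and 0 above (15.1% and 14.9% over all genes), with a median of -0.60. mt-Co1, a subunit of cytochrome c oxidase, had 69339 and 60901 reads against 80889, 81414 and 100355, a log2 difference of -0.66, and mt-Cytb, of complex III, differed by -0.37. The lowest was mt-Nd6, the complex I subunit encoded on the light strand, with 4974 and 4820 reads against 7654, 9375 and 11166 and a difference of -1.16. The NX/NG level of mt-Nd6 was 479 to 673 RPM outside Rn18s-rs5, against 389 to 402 in the rRNA-poor and 684 to 996 in the rRNA-rich libraries. Of the other mRNAs, mt-Co2, mt-Co3 and mt-Nd3 share over 98% of their 40-base words with other genes of the annotation and had means of 15.8, 21.4 and 47.4 reads, so their values are uncertain.

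Histone genes did not follow 1 pattern. The 58 replication-dependent entries took 0.0110% and 0.0113% of the reads in the rRNA-poor and 0.0103, 0.0122 and 0.0113% in the rRNA-rich libraries. Of 13 that passed, 6 lay below and 1 above. The 4 with the most reads were H2bc4 (529 and 512 reads against 393, 467 and 477), H1f2 (441 and 509 against 390, 434 and 420), H2bc21 (69 and 60 against 62, 47 and 63) and H3c14 (25 and 30 against 58, 55 and 61), of which H3c14 alone lay below, by 1.25. H4c4 had 4 and 6 reads against 19, 25 and 15, and H1f4 15 and 16 against 25, 32 and 30. H4c8 lay below by 0.65 on the RPKM scale, though its reads, 25 and 15 against 23, 32 and 24, overlapped. The exception in the other direction, H3c4, had 15 and 18 reads against 12, 4 and 5. Of the 11 replication-independent histones, which carry poly(A) tails, 1 lay below (H1f0, by 0.14) and 1 above (Cenpa, by 0.22). Over all genes 15.1% lay below and 14.9% above.

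The histone stem-loop, in capitals with 5 bases on either side, as GENCODE vM21 gives it, is shown for histones that lay below (H3c14, chr3:96247322-96247347, + strand; H4c4, chr13:23581945-23581970, + strand; H4c8, chr13:23531453-23531478, + strand) and for 1 whose sets overlapped (H1f2, chr13:23739507-23739532, + strand), since all of them hold it.
H3c14: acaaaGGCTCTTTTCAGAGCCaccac
H4c4: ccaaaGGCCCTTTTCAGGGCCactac
H4c8: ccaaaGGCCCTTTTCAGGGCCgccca
H1f2: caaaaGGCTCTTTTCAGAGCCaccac
The gene models differ in what follows it. In 20 genes every GENCODE model ends within 100 bases of the stem-loop, in 19 a model runs on past it, as in H1f2 by 840 bases, or, in H2bc22, a second model lacks it, and in 19 no model holds it. Only 1, 10 and 2 genes of these sets passed the filter, so reads were summed over all genes of a set. The 20 genes that end there had 4.62 and 4.44 RPM in the rRNA-poor libraries against 6.82, 11.3 and 8.03 in the rRNA-rich and 7.63 to 11.8 in the NX/NG libraries, a ratio of 1.92 (exact 95% counting interval 1.55 to 2.38). In the 19 genes of the next set the ratio was 1.20 (1.12 to 1.28), with 50.27 and 54.69 RPM against 59.16, 71.77 and 58.57. In the 19 without a stem-loop it was 1.10 (1.02 to 1.19), but the libraries overlapped, at 45.22 and 43.11 RPM against 42.97, 52.95 and 50.45. There H2bc4 and H2bc21 held 1041 and 129 of the 1209 rRNA-poor reads, and 1337 and 172 of the 1695 rRNA-rich reads. In the set before it, H1f2 held 950 of 1437 and 1244 of 2191. The ratios of these sets thus rest mostly on those genes and do not describe the genes with few reads. A difference between the sets was not tested. These intervals cover counting error only. The 11 genes for processing histone 3′ ends, among them Slbp and Lsm10, all overlapped. Of 20 S phase and mitosis genes 2 lay below and 4 above (15.1% and 14.9% over all genes), with a median of 0.16.

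Long non-coding RNA was close to the median of all genes, with a median of 0.05. Of 1839 that passed, 219 (11.9%) lay below and 341 (18.5%) above, against 15.1% and 14.9% over all genes. By at least 1, 21 lay below and 7 above (0.892% and 0.163% over all genes). Besides Rmrp, Gm15564 and AY036118, Gm28967 had 1 and 0 reads against 16, 21 and 19, the same as its overlapping scaRNA Scarna10 in every library. Of the nuclear long non-coding RNAs, Malat1, whose 3′ end is a triple helix in place of a tail, had 17712 and 22741 reads against 16544, 14945 and 15444 and a difference of 0.12 on the RPKM scale, with overlapping sets. Neat1 had 3087 and 3362 reads against 3406, 3221 and 3142, and lay below by 0.25. In all, 2 of 11 nuclear long non-coding RNAs lay below and 0 above, beside 15.1% and 14.9% over all genes.

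Of 12729 other coding genes, 1934 lay below and 1847 above (15.1% and 14.9% over all genes), with a median of 0.01. By at least 1, 44 lay below and 15 above (0.892% and 0.163% over all genes). Some of the low ones shared exon bases with the RNAs above. Ccnb1ip1 had the same reads as Rpph1 in each library (7 and 4 against 859, 1487 and 747) and shares 233 exon bases with it, on the same strand (Ccnb1ip1, chr14:50789248-50807732). Ccdc107 had 240 and 201 reads against 630, 1232 and 674, and shares 124 bases with Rmrp on the opposite strand. Over the class, 3 of the 44 (6.82%) shared exon bases with an rRNA or small RNA entry or with Rmrp, against 256 of all 12729 (2.01%). In long non-coding RNA it was 4 of 21 (19.05%) against 50 of 1839 (2.72%). In the other direction Gm16587 had 79 and 95 reads against 30, 45 and 9. Among the coding genes with the most reads, Fn1 (fibronectin) differed by 0.14 and Thbs1 (thrombospondin 1) by -0.03.

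Il33, an alarmin cytokine, had 2 and 6 reads against 14, 63 and 23. Bmp2, a ligand of the TGF-β family, had 89 and 109 reads in the rRNA-poor libraries and 435, 146 and 452 in the rRNA-rich ones. Nos2, the inducible nitric oxide synthase, had 65 and 74 reads against 313, 91 and 283, with log2 differences of -1.83 for Bmp2 and -1.69 for Nos2. In both genes Cort+/+ replicate 2 lay nearer to the rRNA-poor libraries than the other rRNA-rich libraries did, and both were picked after their values were seen. In the other direction, Selp (P-selectin, which captures leukocytes) had 614 and 837 reads against 297, 360 and 81, Anpep (aminopeptidase N) 193 and 195 against 53, 72 and 48, and Akap5 (a scaffold for protein kinase A) 114 and 78 against 37, 23 and 16. Tnfsf4 (OX40 ligand) had 26 and 20 against 8, 6 and 1. The rRNA-rich libraries also differed widely from each other in these genes, as Selp shows.

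The NX/NG libraries were set beside both kinds of OGD-R library. Of the 41 small non-coding RNAs that lay below by at least 1, 40 had an NX/NG mean nearer to the rRNA-rich than to the rRNA-poor mean, on the scale of log2 RPM outside Rn18s-rs5. It was 8 of 9 for mitochondrial tRNAs and 19 of 21 for long non-coding RNAs, but 27 of 44 for the coding genes below and 7 of 15 for the coding genes above. NX/NG lay on the rRNA-rich side for nearly all of these small RNAs and on either side for coding genes. All these genes were picked by the contrast itself, and many of the small RNAs passed the filter through rRNA-rich reads alone. The count for small RNAs is thus in part set by the selection.

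The medians of these 6 groups of genes by function lay between -0.115 and 0.07, and their counts stand beside 15.1% below and 14.9% above over all genes. None of the 80 cytosolic ribosomal protein genes that passed lay below or above, and their median was 0.07. Of 19 genes for ribosome synthesis, 3 lay below and 6 above. The poly(A) tail list, of poly(A) polymerases, binding proteins and deadenylases, had 6 of 15 below and 1 above with a median of -0.115, and the RNA exosome list 3 below and 3 above of 15. Of 16 genes of the oxygen and glucose response 2 lay below and 0 above, with a median of 0.05, and of 12 immediate early genes 0 and 2.

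The coding genes differed with their base composition. When the 12718 coding genes with a GENCODE transcript were divided into 4 bins of like size by the GC content of their longest transcript, the lowest bin (31.0 to 44.9% GC) had a median difference of -0.13, with 31.9% of its genes below and 4.03% above. The highest bin (54.5 to 76.5%) had a median of 0.12, with 4.31% below and 25.4% above. Over all genes tested the shares were 15.1% below and 14.9% above. Within Cort-/- the medians of these bins were -0.14 and 0.14, and within Cort+/+ -0.13 and 0.10. By library, relative to the mean of the 5, the lowest bin had a median of -0.09 and -0.07 in the rRNA-poor libraries and 0.06, 0.00 and 0.12 in Cort-/- replicate 1 and Cort+/+ replicates 2 and 3. The highest bin had 0.06 and 0.07 against -0.07, 0.03 and -0.07, so that Cort+/+ replicate 2 lay apart from the other rRNA-rich libraries. By transcript length the bins did not share a direction between the genotypes. The shortest bin had a median of 0.17 within Cort-/- and -0.06 within Cort+/+, and the longest -0.12 and 0.07.

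**Figure D5:**
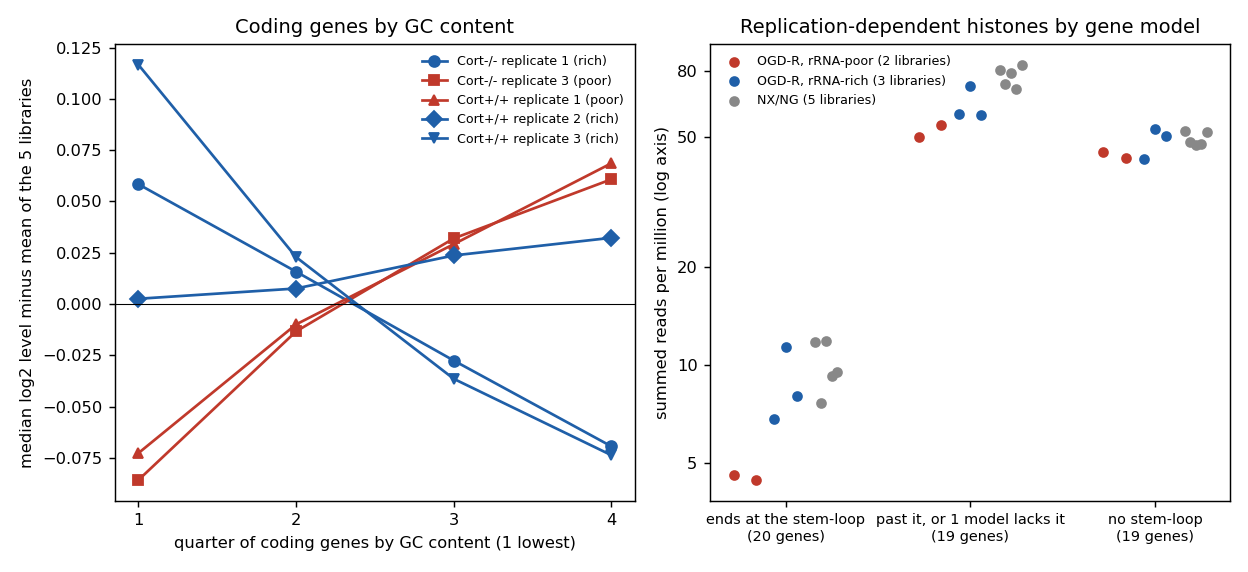
Left, median log2 level of coding genes relative to the mean of the 5 OGD-R libraries, by GC bin (1 lowest, 4 highest); right, summed RPM (log axis) of replication-dependent histones by what the gene models hold. The rRNA-poor libraries rise from -0.09 and -0.07 to 0.06 and 0.07 with GC content, Cort+/+ replicate 2 stays between 0.00 and 0.03, and the histones whose models end at the stem-loop lie at 4.62 and 4.44 in the rRNA-poor libraries, below all others.

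A poly(A) signal in the last 50 bases of at least 1 transcript was present in 43.95% of all genes of the annotation. It was present in 3 of 174 small non-coding RNAs, in 0 of 10 mitochondrial mRNAs and in 89.3% of the other coding genes that passed. Among coding genes, 15.6% of those with and 12.3% of those without the signal lay below, and 0.326% and 0.517% did so by at least 1. Over all genes tested these shares were 15.1% and 0.892%. The signal was looked for on the transcript strand only, and a gene without it in this window may still be polyadenylated.

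The genotype contrast, which the choice of libraries did not use, was tested with limma over the 5 OGD-R libraries. At an FDR threshold of 0.05 limma called 0 of 29775 genes (0%). Before adjustment 1019 genes (3.42%) were under 0.05, with 511 higher in Cort-/- and 508 lower. Limma-voom on the recovered reads called 5, Eno1b and Zfp990 higher in Cort-/- and Pdpn, Rab6b and Tnfrsf1b lower, which are named here after their values were seen. Limma again called 0 genes when any 1 Cort+/+ library was left out. Leaving out either Cort-/- library, or both rRNA-poor libraries, left 1 Cort-/- library and no spread within Cort-/-. No result is drawn from the calls of those fits, nearly all of which were higher in Cort-/-. Without both rRNA-poor libraries, nearly all called genes had 0 reads in both Cort+/+ libraries. Over all genes called there, the median was 1 read in the only Cort-/- library. Rmrp had a difference of -0.26 with an SE of 4.07, and with a term for the rRNA-poor libraries 1.30 with an SE of 1.18, so that its sign changed within its error. mt-Rnr1 had -0.86 with an SE of 1.71, and with the term -0.20 with an SE of 0.30. The median SE went from 0.55 to 0.18 in mitochondrial tRNAs and from 0.16 to 0.14 in coding genes. The same term left 0 genes past the FDR threshold, and 1315 under 0.05 before adjustment. The p-values measure the spread between these libraries, which the labels call independent experiments.

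OGD-R was compared with NX/NG in the share of reads that each class took, over genes in both tables, with an exact permutation test over all 252 ways to assign 5 libraries to OGD-R. Ribosomal RNA was left out of the test. Of the 10 remaining classes, 0 (0%) passed at an adjusted p of 0.05, and 1 had an unadjusted exact p under 0.05. This was the replication-dependent histones, at 0.0112% ± 0.000671 (SD, n = 5) under OGD-R against 0.0137% ± 0.00045 (SD, n = 5) under NX/NG, lower in 5 of 5 OGD-R libraries than in any NX/NG library, with a two-sided exact permutation p of 0.00794, the smallest this design allows, and an adjusted p of 0.0794. Without the rRNA-poor libraries the difference went from -0.00244 to -0.00240 percentage points, and the exact permutation p of 0.0179, adjusted 0.179, was the smallest that design allows. Mitochondrial rRNA took 0.210% ± 0.173 (SD, n = 5) against 0.337% ± 0.0922, with an adjusted exact permutation p of 0.429. Its rRNA-rich range, 0.257 to 0.410%, overlapped the NX/NG range of 0.232 to 0.471%. Small non-coding RNA took 0.204% ± 0.0785 against 0.264% ± 0.0359, with an adjusted exact permutation p of 0.429. Its 3 rRNA-rich libraries, between 0.223 and 0.312%, lay within the NX/NG spread of 0.225 to 0.316% but for the lowest.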

How the data were processed

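RNA from primary mouse BECs was sequenced as stranded mRNA libraries. The authors deposited RPKM values per gene in 1 table per environment, and per the labels' processing notes used edgeR. Aligner, counter, annotation build and the strand setting of the counting are not given in the sources used here. From the RPKM values whole reads were recovered with a tolerance of 0.05 reads (99.996 to 100.0% of values), 12386048 to 12390428 reads per library, which bounds the precision of each share. How totals so nearly equal arose in all 10 libraries is not given in the sources used here, and if reads were subsampled, the counts and intervals refer to the subsample. The scale of the OGD-R table equalled that of the trimmed mean of M values on these reads. The 10 columns of gene categories were not used.

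Transcript classes came from GENCODE vM21 and RefSeq (GRCm38) by symbol, with 97.5% of 29775 genes classed. Differences used log2(RPKM + 0.1), which understates changes of low genes, over genes with a mean of at least 10 reads. Genotypes were compared with limma 3.58.1 (R 4.3.3) with Benjamini-Hochberg adjustment, and class shares with exact permutation tests (Python 3.11.15, scipy 1.17.1, numpy 2.4.6, pandas 2.3.3). Plots used matplotlib 3.10.9. Ratios have exact 95% counting intervals, with 3 reads over the group as the floor. Only the limma fit between genotypes was tested on simulated reads, for 15357 genes and without rRNA-poor libraries among them. It recovered 70.1% of changes of 1 and 95.5% of changes of 2 on the log2 scale, and called 12 unchanged genes. Alternatives changed the pseudocount, filter, scaling, libraries, replicate block and test.

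Named genes were, per class, the 4 with the most reads and the 4 with the largest difference in each direction among those whose libraries did not overlap, and members of the lists; 1 gene that the rule names is not reported here. Genes outside this rule, such as Snord17, Snora81, 7SK, Gm25939, Bmp2 and Nos2, were chosen after their values were seen. The libraries, members and lists were chosen with earlier results of these data known.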

Additional observations from a re-analysis of the deposited data

Results flagged for a closer look

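Of 31 groups of values of 5 libraries examined, 2 held a library far from the others, where chance gives about 1 in 20. Entries without a class took 0.7873% of the reads in Cort+/+ OGD-R replicate 2, against 0.4873 to 0.5236% in the other OGD-R libraries. Of the 97521 reads there, 38482 fell on 1 entry, ENSMUSG00002076173. That entry had 10701 and 183 reads in Cort-/- replicates 1 and 3, and 93 and 6253 in Cort+/+ replicates 1 and 3. The epithelial and choroid plexus list summed to 37.19 RPKM in Cort-/- OGD-R replicate 1, against 1.639 to 9.488 RPKM in the others, with 273 reads of Krt8 (keratin 8) there and 2, 7, 3 and 3 in Cort-/- replicate 3 and Cort+/+ replicates 1, 2 and 3. The median difference between rRNA-poor and rRNA-rich libraries had opposite signs in the genotypes for long non-coding RNA, at -0.0105 within Cort-/- and 0.03333 to 0.1201 for the comparisons within Cort+/+, and for entries without a class, at -0.02701 and 0.008285 to 0.03641. These differences between genotypes were not tested.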

How the results depend on the processing

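The count of genes called between genotypes was 0 in the chosen fit, 1473 without both rRNA-poor libraries, 5 with limma-voom on recovered reads and 0 to 1100 when each library was left out in turn. A fit with 1 Cort-/- library assumes that it varies like the Cort+/+ libraries. All counts above 0 but that of limma-voom come from such fits. They are no measure of how the calls depend on the rRNA-poor libraries. In the fit without both rRNA-poor libraries, nearly all called genes had 0 reads in both remaining Cort+/+ libraries. With the replicate number as a block (replicate block) 0 genes were called and 787 were under 0.05 before adjustment. The numbers are shared by 2 pairs only, and each pair holds 1 rRNA-poor and 1 rRNA-rich library. Other scalings, filters and the pseudocount of 1 left 0 calls.

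Of the class medians, 110 alternatives moved by less than the spread between replicates, 21 moved by more, and 1 moved by more and changed direction from a median beyond 0.1 from 0. In all, 7 changed sign, the others being pseudogenes (4), long non-coding RNA (-0.010 within Cort-/-) and entries without a class, all from medians near 0. The one beyond 0.1 was small non-coding RNA, at 0.056 with a mean of at least 100 reads. That filter also gave -8.109 for ribosomal RNA, -0.907 for mitochondrial tRNA and 0.025 for entries without a class. With every gene above 0 the medians were -2.026 (ribosomal RNA), -0.993 (replication-dependent histones) and 0.039 (no class). Without Rn18s-rs5 in the total they were 0.059 (pseudogenes), 0.072 (coding) and 0.121 (no class). Within Cort-/- they were -3.313 (mitochondrial rRNA), -0.361 (mitochondrial mRNA), 0.331 (replication-independent histones) and -0.027 (no class), and within Cort+/+ -1.511 (mitochondrial tRNA) and -0.286 (replication-dependent histones). Leaving out each library gave -1.424 to -0.930 for mitochondrial tRNA, -0.329 to -0.145 for replication-dependent histones and 0.022 to 0.074 for entries without a class.

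Of the OGD-R minus NX/NG shares (percentage points), 9 alternatives reversed direction and the others kept it, and no class passed under any of them. Without both rRNA-poor libraries the differences were 0.002539 (mitochondrial tRNA), 0.1288 (mitochondrial mRNA), -0.005537 (pseudogenes) and -0.7122 (coding), and outside Rn18s-rs5 -8.983e-05 (pseudogenes). Leaving out each library gave -0.002779 to 0.0002661 for mitochondrial tRNA and -0.1229 to 0.04703 for mitochondrial mRNA. The cause was not tested.

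RNAs with 0 to 5 reads in the rRNA-poor libraries have wide counting intervals, and 16 of 19 ribosomal RNA entries and most small RNA entries were too low to compare.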
